A study of Mus musculus with 6 samples.

Results

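The HoxB cluster genes were examined in RNA-Seq libraries from mouse embryonic fibroblasts (MEFs), which are primary fibroblasts grown from embryos. Members were taken by symbol, Hoxb1 to Hoxb9 and Hoxb13, which gave 10 of the 25043 genes that could be matched to the deposited table, and each was represented by its RefSeq transcript with the highest mean. The cluster spans bases 96194316 to 96368254 of chromosome 11 in mm10 (GRCm38), with Hoxb13 at its left end and Hoxb1 at its right end. The study compared 3 libraries of wild type (WT) MEFs with 3 of Anp32e-/- MEFs, which lack the histone chaperone that removes the variant H2A.Z from chromatin. The MEFs came from WT and Anp32e-/- embryos, were a gift from another laboratory, were grown in the same serum-containing medium and were kept below passage 8, and no treatment is listed for either group. The number of embryos behind each group, their strain and their sex are not given in the sources used here, and the study calls its cell culture replicates biological without saying whether they began from separate embryos. The p-values thus measure the spread between these libraries.

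Hox genes encode homeodomain transcription factors that give cells of the embryo their position along the body axis. Within a cluster, the genes at the 3′ end (for HoxB, those next to Hoxb1) are switched on early and in anterior regions, and genes toward the other end follow later and further back. Fibroblasts grown in culture keep much of the Hox pattern of the body region that they came from.

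The deposited table gives 1 mean over the 6 libraries for each transcript. Since every read adds a step of known size to that mean, the whole reads of single libraries could be found where exactly 1 combination of reads gives the listed mean. This held for 39.4% of genes with reads, all with a mean under 100. Summed over all resolved transcripts, the libraries held 153331 to 192756 reads. Transcripts of the same gene were each counted in this sum, so it is not a number of distinct reads. The total depth of the libraries is unknown. Reads were divided by the size factor of their library, which lay between 0.909 and 1.13, and are called normalized reads below. Libraries are numbered within each group by size factor, and these numbers are not the replicate numbers of the labels. Between libraries of the same group the reads differed by more than sampling noise, with a chi-square of 2.36 to 2.43 per transcript among WT and of 2.92 to 3.18 among Anp32e-/- libraries. It was 7.27 to 8.51 between groups. Anp32e itself, on chromosome 3 from 95929245 to 95947387, has an authors' mean of 2190 normalized reads, too high to be resolved, so the targeted gene could not be used to check the labels.

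Reads were resolved for 8 of the 10 HoxB genes. Hoxb1 is listed at 0, and Hoxb9 has too high a mean. Of the 8, Hoxb13 had fewer than the 10 reads asked for over the 6 libraries, which left 7 genes, Hoxb2 to Hoxb8, for the test. All 7 were called higher in Anp32e-/- MEFs and 0 lower by limma on log2 values (adjusted p under 0.05 over all genes tested, log2 difference over 0.5 in size), while 8.51% of the 4876 genes tested were called higher and 8.39% lower. At an unadjusted p under 0.05 the number of HoxB genes that were lower was also 0, as it was by limma voom. For the same 7 genes every Anp32e-/- library lay above every WT library, which held for 15.3% of all genes tested. WT reads of 6 of these genes summed to less than the minimum of 10, so they could enter the test only with reads of the Anp32e-/- libraries. The minimum thus favoured genes that were high there, and neither the count nor the median describes HoxB genes beyond these. Their median log2 difference was 4.03, also with Hoxb5 at the ratio that a floor of 3 WT reads gives. The median over all genes tested was -0.05, but given this selection the medians are not a contrast between HoxB and other genes.

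Summed over the 8 resolved genes, HoxB transcripts had 8.1, 4.76 and 14.1 normalized reads in the WT libraries and 284.9, 257.6 and 265.7 in the Anp32e-/- libraries. The group means were 9 ± 4.76 and 269.4 ± 14 (SD, n = 3 each). All libraries of the Anp32e-/- group were thus high, and they lay close to each other. In bulk libraries, fewer cells that express a gene and less RNA per cell cannot be told apart.

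**Figure D1:**
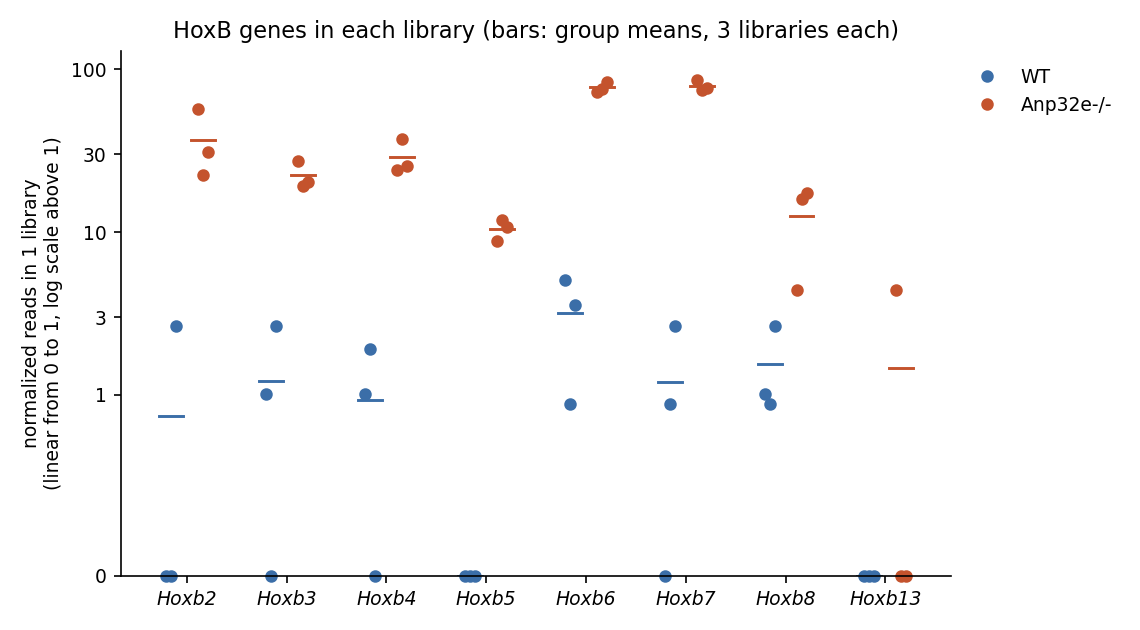
Normalized reads of the 8 resolved HoxB genes in each library, on an axis that is linear from 0 to 1 and logarithmic above, with WT in blue, Anp32e-/- in orange and bars for the means of 3 libraries. For Hoxb2 to Hoxb8 the groups do not overlap, and for Hoxb13 a single Anp32e-/- library has reads.

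Hoxb1, the gene at the anterior end, acts in the hindbrain. It is listed at 0, so no read of it was counted in any library, and a count of 0 over the 3 libraries of a group leaves room for an expected count of up to 3 reads. Its neighbour Hoxb2, which also acts in the hindbrain, had 0, 0 and 2.65 normalized reads in WT and 57.2, 22.4 and 31.1 in Anp32e-/- MEFs. Among the Anp32e-/- libraries, library 1 was the highest, and the 3 differed by 8.26 times the variance that counting alone gives. The summed reads, 3 in WT and 105 in Anp32e-/- MEFs, gave a ratio of 38.6 (exact 95% counting interval 12.9 to 190.3). These intervals cover counting error only. On the log2(normalized reads + 1) scale, which understates the change of low genes, the difference of Hoxb2 was 4.52 (SE 0.675, adjusted p = 3.72e-06 by limma).

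Hoxb3 and Hoxb4, known for their roles in the hindbrain, neck and blood stem cells, followed the same order of groups. Hoxb3 had 1.01, 0 and 2.65 normalized reads in WT and 27.5, 19.2 and 20.4 in Anp32e-/- MEFs, a ratio of 17.7 (95% counting interval 6.57 to 66.8) and a log2 difference of 3.57 (SE 0.679, adjusted p = 0.000142 by limma). The other transcript of Hoxb3, with an authors' mean of 9.32 beside 11.8, had the same WT reads, and 16, 16 and 18 reads in Anp32e-/- MEFs. For Hoxb4 the WT libraries held 1.01, 1.9 and 0 normalized reads and the Anp32e-/- libraries 24.2, 37.4 and 25.3. Its ratio was 30.5 (95% counting interval 10.1 to 151.1), with a log2 difference of 4.03 (SE 0.654, adjusted p = 1.36e-05 by limma). Both genes were low in every WT library and high in every Anp32e-/- library.

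The genes of the middle of the cluster, Hoxb5 to Hoxb8, pattern the trunk. No read of Hoxb5 was found in WT libraries, whereas the Anp32e-/- libraries had 8.8, 11.8 and 10.7 normalized reads. With the WT group set to a floor of 3 reads, the level of Hoxb5 in Anp32e-/- MEFs was 11-fold higher (adjusted p = 0.00135 by limma). This ratio takes the Anp32e-/- reads as exact, so it is not a lower limit like those of the counting intervals. Hoxb6 had the most WT reads of the genes tested, with 5.07, 0.951 and 3.54 normalized reads, and 72.6, 75.9 and 83.7 in Anp32e-/- MEFs. This is a ratio of 24.6 (95% counting interval 13.1 to 52) and a log2 difference of 4.37 (SE 0.462, adjusted p = 3.43e-09 by limma). With 10 reads in WT, Hoxb6 was the gene that reached the minimum without the Anp32e-/- libraries.

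Hoxb7 had the largest fitted log2 difference of the HoxB genes tested. Its WT libraries held 0, 0.951 and 2.65 normalized reads and its Anp32e-/- libraries 85.8, 74.8 and 76.9. The ratio was 62.6 (95% counting interval 24.1 to 231.8) and the log2 difference 5.38 (SE 0.535, adjusted p = 9.41e-10 by limma). Ordered from the highest log2 difference toward higher in Anp32e-/- MEFs to the lowest, Hoxb7 was number 6 of the 4876 genes tested and Hoxb8 number 180. The counting interval of Hoxb7 overlaps those of Hoxb2, Hoxb3, Hoxb4, Hoxb6 and Hoxb8, for Hoxb8 only from 24.1 to 26.6. Overlap of intervals does not show that ratios are alike. No difference between these genes was tested, so their order is not settled.

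Hoxb8 had the smallest fitted difference of the HoxB genes tested. WT libraries held 1.01, 0.951 and 2.65 normalized reads of it, and Anp32e-/- libraries 4.4, 16 and 17.5. Library 1 of the Anp32e-/- group lay nearer to the WT libraries than to the rest of its own group. Its ratio was 8.17 (95% counting interval 3.2 to 26.6) and its log2 difference 2.30 (SE 0.736, adjusted p = 0.0255 by limma). This call was lost when 1 of 4 libraries was left out, with an adjusted p of 0.0797 without WT library 1, 0.0891 without WT library 2, 0.111 without Anp32e-/- library 2 and 0.13 without Anp32e-/- library 3, all by limma. With 3 libraries against 3, an exact permutation test of a single gene (two-sided) cannot go below 0.1, and it gave p = 0.1 for each of the 7 genes.

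Hoxb9 and Hoxb13 are the posterior members. Hoxb9, on chromosome 11 from 96271330 to 96276595, has the highest mean of the cluster, an authors' mean of 211.8 normalized reads over both groups. No combination with 3 reads or fewer in either group gives this mean, so more than 3 reads of Hoxb9 were counted in WT as well as in Anp32e-/- MEFs. Its values in single libraries could not be resolved and it entered no test. Hoxb13, which is known from the tail bud, hindgut and prostate, had 4 reads in library 1 of the Anp32e-/- group and 0 in the 5 others. Among the Anp32e-/- libraries, the same library was lowest for Hoxb8 and highest for Hoxb2.

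Levels of different genes were compared per kb of transcript length. Of the 8 resolved genes, Hoxb7 and Hoxb6 were the most abundant in Anp32e-/- MEFs, with 61.3 ± 4.52 and 58.6 ± 4.32 normalized reads per kb (SD, n = 3), a difference smaller than their spread. Hoxb2 followed with 22.7 ± 11.1 and Hoxb4 with 11.3 ± 2.86 normalized reads per kb. Hoxb3, Hoxb5 and Hoxb8 lay at 7.02 ± 1.4, 5.5 ± 0.791 and 4.8 ± 2.73, and Hoxb5 and Hoxb8 did not differ beyond their spread. In WT MEFs Hoxb6 had 2.41 ± 1.57 normalized reads per kb, and none of the other 7 reached 1. Over all 6 libraries Hoxb9 has an authors' mean of 82.3 normalized reads per kb, above the 31.1 of Hoxb7 and the 30.5 of Hoxb6 on the same scale. This mean pools both groups and gives no order within either of them.

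**Figure D2:**
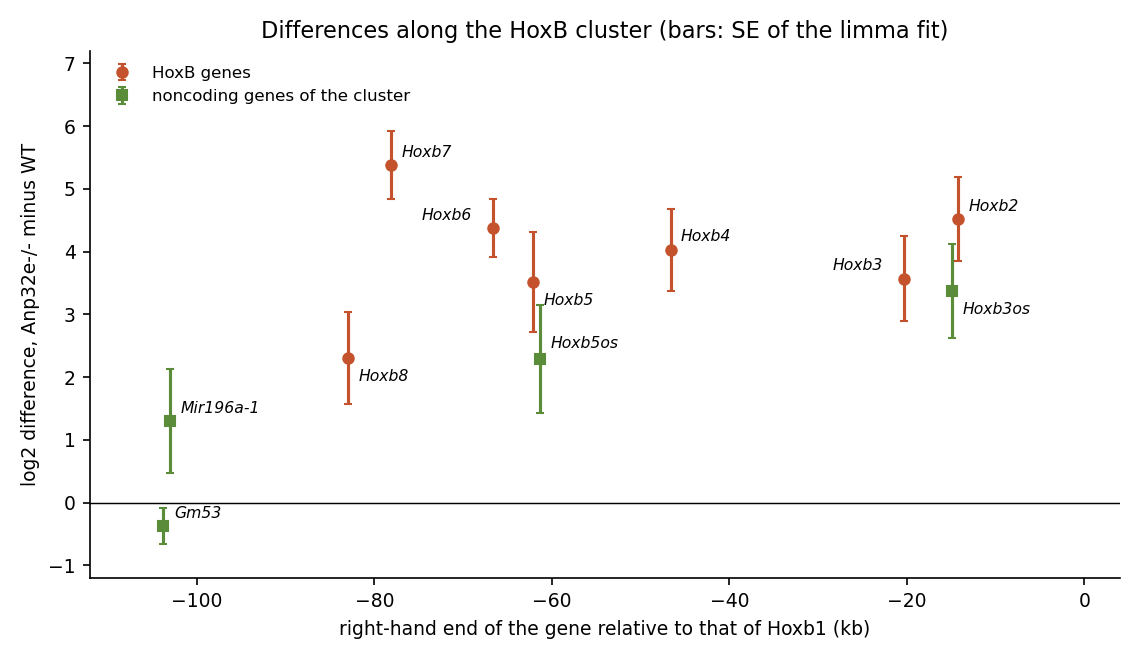
Log2 difference (Anp32e-/- minus WT) of the tested HoxB genes and noncoding genes of the cluster, by the distance in kb of the right-hand end of each gene from that of Hoxb1, with bars for the SE of the limma fit. The HoxB genes from Hoxb2 to Hoxb7 lie between 3.51 and 5.38 and Hoxb8 at 2.30, while the noncoding Hoxb3os lies at 3.37, Hoxb5os at 2.29, Mir196a-1 at 1.30 and Gm53 below 0.

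Noncoding genes of the cluster were examined in a list of 7, of which 5 have a row in the table. The antisense gene Hoxb3os was called higher, with 0, 0 and 2.65 normalized reads in WT and 14.3, 15 and 15.6 in Anp32e-/- MEFs (log2 difference 3.37, SE 0.752, adjusted p = 0.00106 by limma). Its 3 WT reads are under the minimum, so it too entered the test only with reads of the Anp32e-/- libraries. Its exons share 2250 bases with those of Hoxb3 and 953 with those of Hoxb2 on the opposite strand. The study gives default settings for featureCounts and DESeq2 and does not name a strand setting. Reads of these genes therefore cannot be told apart. Hoxb5os, which shares 100 exon bases with Hoxb5, had 0, 0 and 0.884 normalized reads in WT and 5.5, 2.14 and 9.73 in Anp32e-/- MEFs and did not pass (adjusted p = 0.0634 by limma). It passed without Anp32e-/- library 2 (adjusted p = 0.045 by limma). Gm53, beyond Hoxb9, had 45.6, 45.6 and 50.4 normalized reads in WT and 37.4, 38.5 and 32.1 in Anp32e-/- MEFs and was not called (log2 difference -0.38, SE 0.285, adjusted p = 0.402 by limma).

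The cluster also holds a pair of miRNA genes, and their mature sequences are shown because both families are known to target Hox transcripts. The sequences are those of RefSeq on GRCm38.p6, with the seed (bases 2 to 8) in capitals. Mir196a-1 lies between Gm53 and Hoxb9, with the mature miRNA at chr11:96265187-96265208 on the plus strand, and Mir10a between Hoxb5 and Hoxb4, with the mature miRNA at chr11:96317186-96317208 on the same strand.
mmu-miR-196a-5p: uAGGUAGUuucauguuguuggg
mmu-miR-10a-5p: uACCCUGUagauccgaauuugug
The hairpin of Mir196a-1 had 1.01, 0.951 and 1.77 normalized reads in WT and 12.1, 2.14 and 2.92 in Anp32e-/- MEFs and was not called (adjusted p = 0.315 by limma). Library 1 of the Anp32e-/- group was the high one. Mir10a is listed at 0. Reads on a hairpin in a total RNA library do not measure the mature miRNA. After the coding part of the Hoxb8 transcript, bases 2208 to 2229 pair with miR-196a-5p along its whole length, with 21 Watson-Crick pairs and 1 G-U pair. Capitals mark the part of this site that faces the seed.
Hoxb8 site: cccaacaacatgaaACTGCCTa
The exact seed match ACTACCT occurs 1 time after the coding part of Hoxb1, of Hoxb6 and of Hoxb7, and 0 times in that of the other HoxB transcripts, Hoxb8 included. For miR-10a-5p the seed match ACAGGGT occurs 1 time after the coding part of Hoxb3 and 0 times in that of the others. A match is a description of the sequence, and the table holds no measure of binding.

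Promoters of 300 bases around a start site were at hand for 3 of the 10 members. Those of Hoxb8 and Hoxb4, which were both called higher, are printed from RefSeq on GRCm38.p6. Hoxb8 is at chr11:96281655-96281954 and Hoxb4 at chr11:96318017-96318316, both on the plus strand, and capitals mark matches to TGATNNAT or TTTATNG on either strand.
Hoxb8: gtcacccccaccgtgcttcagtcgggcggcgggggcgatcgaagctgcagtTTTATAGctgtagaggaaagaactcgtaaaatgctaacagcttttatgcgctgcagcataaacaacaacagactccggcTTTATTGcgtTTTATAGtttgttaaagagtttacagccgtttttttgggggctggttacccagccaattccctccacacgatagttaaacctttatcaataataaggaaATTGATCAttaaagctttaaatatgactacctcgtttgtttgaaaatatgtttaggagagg
Hoxb4: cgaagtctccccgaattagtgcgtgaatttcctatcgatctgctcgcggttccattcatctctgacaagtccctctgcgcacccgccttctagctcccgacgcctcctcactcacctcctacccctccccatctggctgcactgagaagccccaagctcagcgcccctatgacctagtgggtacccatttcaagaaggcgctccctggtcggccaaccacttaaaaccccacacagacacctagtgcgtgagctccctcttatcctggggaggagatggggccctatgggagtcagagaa
TGATNNAT, a form of the site bound by Pbx with Hox proteins, occurs 1 time in the Hoxb8 window and 0 times in that of Hoxb4, and in 8.85% of the 32851 promoters of this length. TTTATNG, a form of the Cdx site, occurs 3 times in the Hoxb8 window and 0 times in that of Hoxb4, and in 10.9% of all promoters. The direct repeat bound by retinoic acid receptors, searched with 5 free bases between its parts, occurs in neither of the pair and in 0.00913% of all promoters. The promoter of Hoxb1, the member listed at 0, holds 1 match to TGATNNAT and 0 to TTTATNG. The windows of Hoxb8 and Hoxb4 hold 13 and 14 CpG, beside a median of 7 over all promoters. These matches are descriptions, and no binding was measured here.

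Outside the cluster, 28 genes that flank HoxB on chromosome 11 were examined. Reads were resolved for 8 of them and 5 were tested, of which 1, Sp6, was called lower and 0 higher. Their median log2 difference was -0.21. Over all genes tested, 8.39% were called lower and 8.51% higher. Sp6 had 56.7, 58 and 57.5 normalized reads in WT and 28.6, 43.8 and 25.3 in Anp32e-/- MEFs (log2 difference -0.84, SE 0.289, adjusted p = 0.0401 by limma). This call was lost when any library but Anp32e-/- library 2 was left out, with an adjusted p by limma between 0.0982 and 0.122. It was also lost when the median difference of all genes was taken out (adjusted p = 0.0554 by limma). The log2 differences of Prr15l, B4galnt2, Lrrc46 and Gngt2 were 0.57, 0.29, -0.21 and -0.25, with adjusted p-values by limma of 0.59, 0.732, 0.797 and 0.84. Ttll6, next to Hoxb13, had 5 reads in WT and 0 in Anp32e-/- MEFs, Calcoco2 had 1 read and Gip 2 in all, and Tbx21 is listed at 0. The other 19 flanking genes, among them Skap1, Snx11, Cbx1, Nfe2l1, Copz2, Cdk5rap3, Sp2, Scrn2, Mrpl10, Osbpl7, Tbkbp1, Atp5g1, Ube2z, Snf8, Igf2bp1, Abi3, Phospho1 and Zfp652, have authors' means of 87.6 to 8489 normalized reads and could not be resolved.

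**Figure D3:**
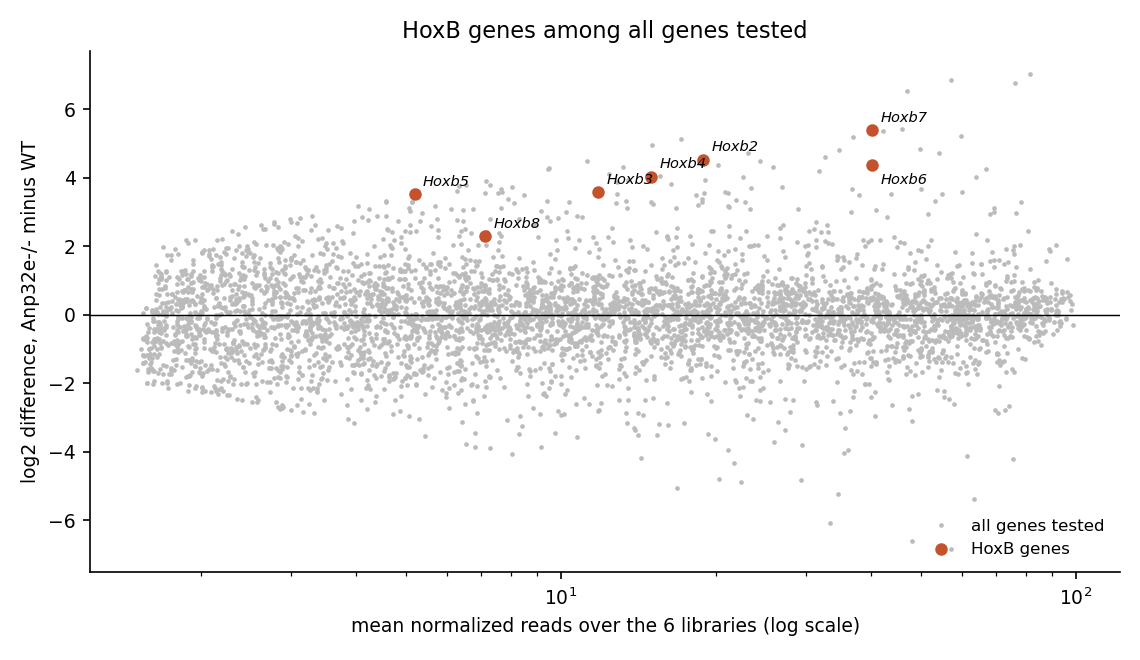
Log2 difference (Anp32e-/- minus WT) against the mean of normalized reads over the 6 libraries on a log scale for the 4876 genes tested in gray, with the 7 HoxB genes in orange. The 7 HoxB genes all lie above 0, with Hoxb8 the lowest of them, and 5 other genes lie above Hoxb7.

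The other Hox clusters were set beside HoxB by the same test. Of the 9 HoxC genes, 8 were tested and 6 were called higher and 0 lower (median log2 difference 3.85), while Hoxc11 and Hoxc13 did not pass. As for HoxB, 4 of these 6 had fewer WT reads than the minimum and entered the test only with reads of the Anp32e-/- libraries, and 8.51% of all genes tested were called higher. Hoxc6, Hoxc10 and Hoxc4, the called HoxC genes with the highest means, had log2 differences of 5.21, 2.99 and 3.69. Both tested HoxD genes, Hoxd4 and Hoxd3, were called higher, with 2.04 and 2.62, and 6 HoxD genes had means too high to be resolved. Of 5 tested HoxA genes, 1 was called higher and 0 lower (median log2 difference 0.32), namely Hoxa4 with a log2 difference of 1.62. HoxA and HoxD differ from HoxB in what could be tested, since 6 HoxA genes could not be resolved, and no difference between clusters was tested.

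**Figure D4:**
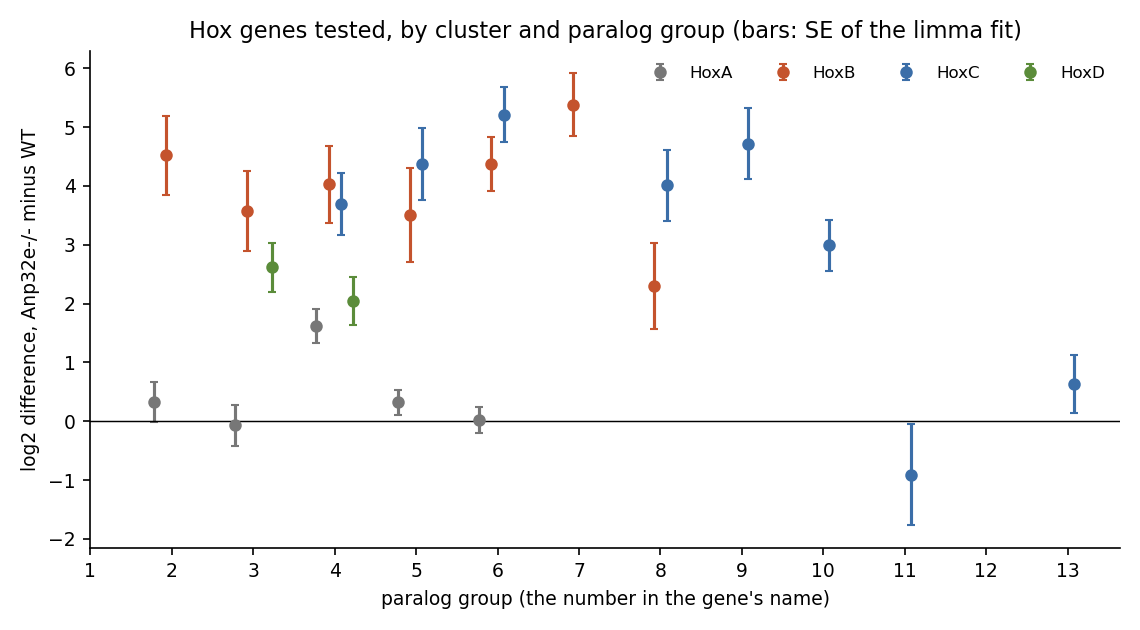
Log2 difference (Anp32e-/- minus WT) of the Hox genes tested, by paralog group, which is the number in the gene's name, with color for the cluster and bars for the SE of the limma fit. HoxB and HoxC genes of groups 2 to 9 lie between 2.30 and 5.38, and HoxA genes other than Hoxa4 lie within 0.32 of 0.

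The genes whose log2 values over the 6 libraries were most like the mean of the 7 HoxB genes were Prrg3, Cdh1, Foxd1, Axin2 and Tie1, with Pearson's r of 0.998, 0.997, 0.997, 0.996 and 0.993 among 4851 genes outside the Hox clusters. These r values are descriptions over 6 libraries that fall into 2 groups, and 153 genes had an r over 0.95. Prrg3 had 0, 0 and 1.77 normalized reads in WT and 161.7, 155 and 138.2 in Anp32e-/- MEFs. Axin2, a target and inhibitor of Wnt signaling, had 14.2, 12.4 and 16.8 normalized reads in WT and 60.5, 67.3 and 78.8 in Anp32e-/- MEFs (log2 difference 2.18, SE 0.324, adjusted p = 3.4e-06 by limma). Tie1 had 0 reads in WT and 16 in all in Anp32e-/- MEFs, and its call was lost when any library was left out (adjusted p by limma between 0.0576 and 0.0664).

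Factors that act on Hox genes or with their proteins could be tested only in part. None of the 9 TALE cofactors, which bind DNA together with Hox proteins, and none of the 23 Polycomb and trithorax genes, which hold Hox genes silent or active, could be resolved, in nearly all cases because the mean was over 100. Of the Polycomb and trithorax genes, Phc2 has the highest authors' mean, 13755 normalized reads. Of 10 Cdx and other upstream factors, Cdx2 and Cdx4 are listed at 0, Cdx1 had 2 reads in all, 2 genes were tested and 0 were called in either direction (limma, 0 also at an unadjusted p under 0.05 and by limma voom). Of the tested pair, Tbx6 had a log2 difference of -0.53 and Gbx2, named after its values were seen, of 1.43, and Gdf11 has the highest authors' mean, 1219. Of 18 genes of retinoic acid receptors and metabolism, 5 were tested, and 2 were called higher and 0 lower. Of all genes tested, 8.51% were called higher and 8.39% lower. Rxrg is listed at 0, and Rarg has the highest authors' mean, 5323. Retinoic acid is known to switch on anterior HoxB genes. Cyp26c1, which breaks retinoic acid down, had a log2 difference of 2.96 (adjusted p = 0.00904 by limma), and its call was lost without Anp32e-/- library 1 (0.0823) or library 3 (0.0667).

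Markers of cell types were examined in the same libraries. The summed levels given for each list cover its resolved genes only, which leaves out the abundant ones. Beside the counts of called markers, here and in the next paragraph, 8.51% of all genes tested were called higher and 8.39% lower. Of 12 fibroblast markers, 11 had means too high to be resolved, led by Vim with an authors' mean of 330695 normalized reads, and Lum had 5 reads in WT and 3 in Anp32e-/- MEFs. Of 11 mesothelial markers, 10 have a row in the table, 0 of them are listed at 0, 2 were tested and 1 was called higher. Their summed level was 41.5, 24.7 and 8.84 normalized reads in WT and 71.5, 88.7 and 71.1 in Anp32e-/- MEFs. Bnc1, the called one, had a log2 difference of 4.49 (adjusted p = 2.69e-06 by limma), and Krt19 has the highest authors' mean, 7400. Wt1 had 0 reads in WT and 598.5, 634.9 and 568.5 normalized reads in Anp32e-/- MEFs. This was 633.5-fold higher with the WT group set to a floor of 3 reads and the Anp32e-/- reads taken as exact. Its reads, like those of the Y-linked genes, were found only by allowing no more than 3 reads in 1 group. Wt1 was singled out after its values were seen. The same search gave no solution for Upk3b, Msln, Lrrn4 and Gpm6a, so these had more than 3 reads in each group. Of 8 epithelial markers, 4 were tested and 1, Cdh1, was called higher, with 6.08, 3.8 and 7.96 normalized reads in WT and 124.3, 112.2 and 148 in Anp32e-/- MEFs. The summed epithelial level was 48.6, 48.5 and 29.2 in WT and 166.1, 150.7 and 185.9 in Anp32e-/- MEFs. The rise of this sum lay almost wholly in Cdh1. Esrp2 has the highest authors' mean, 144.7, and Esrp1 is listed at 0. Bnc1, Wt1 and Cdh1 were thus high in the same group as the HoxB genes. Other tested markers of these lists, named after their values were seen, did not pass, with log2 differences of 0.60 for Krt8, 1.26 for Epcam, 0.07 for Cldn7 and -0.93 for Cldn4. The part of these markers in the HoxB values was not tested.

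Of 6 kidney and urogenital mesenchyme markers, 2 were tested, of which Foxd1 was called higher and Pax8 lower, with log2 differences of 2.19 and -2.92. Their summed level was 29.4, 40.9 and 45.1 normalized reads in WT and 71.5, 63.1 and 68.1 in Anp32e-/- MEFs. Osr1 has the highest authors' mean, 1752, and Pax2 is listed at 0. Of 7 macrophage markers, 4 were tested and 2, Csf1r and Fcgr1, were called higher, with summed levels of 33.4, 36.1 and 27.4 in WT and 67.1, 68.4 and 53.5 in Anp32e-/- MEFs and with Cd68 the most abundant (authors' mean 257.2). The call of Csf1r was lost without WT library 3 (adjusted p = 0.0605 by limma). Fcgr1 had 0 reads in WT and 15 in all in Anp32e-/- MEFs. Its call was lost without any library but Anp32e-/- library 1 (adjusted p by limma between 0.0636 and 0.112). Without that library it had too few reads to be tested. With all libraries it was also lost at a minimum of 1 read (adjusted p = 0.0506 by limma) and with means under 40 (0.0523). Ptprc, a marker of all leukocytes named after its values were seen, lay the other way, with 6.08, 5.71 and 3.54 normalized reads in WT and 0, 3.21 and 0 in Anp32e-/- MEFs, and did not pass (log2 difference -1.89, adjusted p = 0.131 by limma). Of 7 endothelial markers, 5 were tested and 1, Tie1, was called higher, with summed levels of 60.8, 45.6 and 46.9 in WT and 47.3, 69.5 and 53.5 in Anp32e-/- MEFs. Esam, also named after its values were seen, had 11.1, 17.1 and 12.4 normalized reads in WT and 5.5, 3.21 and 2.92 in Anp32e-/- MEFs and did not pass (log2 difference -1.59, adjusted p = 0.07 by limma), and those of Pecam1, Cdh5 and Tek, none of which passed, were -0.20, -0.82 and 0.45. Kdr is the most abundant of the endothelial markers, with an authors' mean of 2958, and Emcn is listed at 0. Of the tested markers of skeletal muscle (2 of 7) and of neural and glial cells (5 of 8), 0 were called by limma, 0 also at an unadjusted p under 0.05 and 0 by limma voom. The tested genes with the highest means, Des and Elavl4, had log2 differences of -0.09 and 0.34. Summed levels were 66.9, 68.5 and 98.2 normalized reads in WT and 70.4, 80.2 and 75 in Anp32e-/- MEFs for skeletal muscle. For neural and glial markers they were 54.7, 42.8 and 63.7 in WT and 42.9, 70.5 and 92.5 in Anp32e-/- MEFs. Their most abundant genes are Acta1 and Tubb3, with authors' means of 4711 and 737.4, and Myod1, Myf5 and Foxd3 are listed at 0. Of the called genes named outside the Hox clusters, Prrg3, Tie1, Cyp26c1, Bnc1 and Fcgr1 had WT reads under the minimum and likewise entered the test only with reads of the Anp32e-/- libraries.

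Reads of 4 Y-linked genes also differed between the groups, and these genes were singled out after their values were seen. Ddx3y had 0 reads in every WT library and 809.7, 959.9 and 1539 normalized reads in Anp32e-/- MEFs. Kdm5d, Eif2s3y and Uty were likewise at 0 in all 3 WT libraries, and in Anp32e-/- MEFs they had 567.7 to 808.9, 770.7 to 1083 and 564.4 to 862.5 normalized reads. Genotype and the presence of Y-linked reads go together in these libraries, so their parts in the HoxB differences cannot be told apart.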

How the data were processed

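For 3 WT and 3 Anp32e-/- samples of MEFs, libraries of total RNA were made with a stranded kit. The authors used RNA-STAR for alignment to mm10 and featureCounts of Subread for counting RefSeq transcripts, and the authors ran DESeq2 at its defaults. The study's reporting summary names the versions of DESeq2 and RNA-STAR, which are not repeated here. The version of Subread is not given in the sources used here. Beyond the mention of defaults, the strand setting of the counting is not named. The deposited signal is 1 mean per transcript, made by the authors from counts scaled by DESeq2 size factors and written with 15 significant digits. A further 5 deposited columns hold the authors' own comparison (log2 fold change, its standard error, the test statistic and both p-values), and their values were neither printed nor compared. The exception in use is the sign of the authors' log2 fold change, which was read only in transcripts with reads in 1 library (185 to 404 per library, with 1 sign in 100% of them). It alone shows which libraries belong to which group, so every comparison rests on it. The header of this column names no group, and its direction, Anp32e-/- over WT, was taken from the study's text. With the opposite direction the groups would swap. No label or gene could check the assignment independently.

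Whole reads were searched for means under 100. Exactly 1 solution was found for all 5745 distinct means under 40, for 694 of 695 between 40 and 60, 469 of 491 between 60 and 80 and 179 of 420 between 80 and 100. Of 42361 transcripts, 42203 were assigned to a gene through RefSeq accessions. Genes with at least 10 reads over the 6 libraries were fitted with limma 3.58.1 in R 4.3.3 (lmFit, eBayes with a trend, two-sided, Benjamini-Hochberg adjustment over all genes tested) on log2(reads divided by size factor + 1). Most genes were not resolved, so no count model was run. Search and fit were tested on simulated data, and no outcome of these tests is given here. Listed and Y-linked genes with higher means were searched for solutions with at most 3 reads in 1 group, a step chosen after seeing the data. Counting intervals are exact (Clopper-Pearson). Lengths and exons came from GENCODE vM21. Scripts ran in Python 3.11.15 (scipy 1.17.1, numpy 2.4.6, pandas 2.3.3, numba 0.67.0, matplotlib 3.10.9).

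Named genes are all HoxB genes, Anp32e, the noncoding and flanking genes, up to 3 called genes with the highest means of each other list (with none called, the tested and the listed gene with the highest mean), and the 5 genes most like HoxB by Pearson's r. Some genes of the lists are not reported here. Members and lists were chosen with earlier results of these data known. Alternatives were other pseudocounts, minimums, scalings and transcripts, autosomal genes, limma voom, leaving out each library and, chosen after seeing the data, means under 40.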

Additional observations from a re-analysis of the deposited data

How the results depend on the processing

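No paired analysis was possible because the deposited table ties no library to a replicate number. Of 109 values of the 7 tested HoxB genes under alternatives, 105 kept their direction and their side of the threshold, 4 (all of Hoxb8, each without 1 library) lost the call and 0 changed direction. The size of the fitted log2 differences moved more, from 2.78 to 5.23 for Hoxb2, 2.15 to 4.09 for Hoxb3, 2.5 to 4.65 for Hoxb4, 1.62 to 4.52 for Hoxb5, 3.36 to 4.72 for Hoxb6, 3.78 to 5.92 for Hoxb7 and 1.34 to 2.87 for Hoxb8. With a minimum of 60 reads or means under 40, only 5 HoxB genes were tested, and all 5 were called higher. Over all genes, 415 were called higher and 409 lower. With means under 40, an alternative chosen after seeing the data that tests fewer genes, these were 252 and 238, and with every transcript tested they were 657 and 793. Leaving out 1 library gave 307 to 340 higher and 244 to 384 lower. Of the genes called, 50.4% were higher, beside 45.3% to 57.2% under alternatives.

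For 38 other named genes, 590 of 620 values kept their side, 22 lost the call, 1 gained it and 7 changed sign, all in genes that were not called. Lrrc46 moved to 0.21 without Anp32e-/- library 2 (range without 1 library -0.54 to 0.21) and B4galnt2 to -0.09 without WT library 1 (-0.09 to 0.73). Hoxa3 was 0.16 without WT library 2 (-0.35 to 0.16), and Des 0.11 without WT library 3 (-0.22 to 0.11). Hoxa6 was -0.00 when scaled to total resolved reads and -0.26 to 0.17 without 1 library. The cause was not tested. Apart from Wt1 and the Y-linked genes, reads were resolved only for genes with means under 100. Genes such as Hoxb9 and Anp32e thus could not be compared, and WT levels of the tested HoxB genes rest on 0 to 10 reads.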
